A study of Mus musculus with 16 samples.

Results

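Fat receives and locally regenerates glucocorticoid through a small set of genes, and 7 of them are described here: both corticosteroid receptors (Nr3c1, Nr3c2), the enzyme that reactivates glucocorticoid inside the cell and the enzyme that feeds it reducing power (Hsd11b1, H6pd), a steroid ring reductase (Srd5a1) and a pair of efflux pumps (Abcb1a, Abcb1b). Every array probe whose transcript accession mapped to these genes was taken, which gave 15 of the 41174 probes on the array and 7 of the 19096 named genes. Of the 15 probes, 13 were bright enough to be tested, and all 7 genes had at least 1 of them. The study measured RNA of adipose tissue from female mice on 16 one-colour expression arrays, 4 for each of 4 groups. The groups were white adipose tissue (WAT) of mice that lack the glucocorticoid receptor gene in adipose tissue by design (AdipoKO_WAT), WAT of control mice (CTL_WAT), brown adipose tissue (BAT) of the knockout mice (AdipoKO_BAT) and BAT of control mice (CTL_BAT). The design text calls the controls wild-type and the arrays of a group biological replicates. The transgene that directs the deletion, the deleted exons, the age and strain of the mice and the WAT depot sampled are not given in the sources used here.

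Corticosterone, the main glucocorticoid of mice, acts on the glucocorticoid receptor and, with higher affinity, on the mineralocorticoid receptor, and both receptors then act as transcription factors. Within adipocytes the enzyme encoded by Hsd11b1 sits in the endoplasmic reticulum and turns the inert keto form of the hormone back into corticosterone, so that the dose seen by the receptors depends on the tissue as well as on the blood. It needs NADPH in the lumen of that organelle, which H6pd supplies by oxidising glucose 6-phosphate, while ring reductases such as Srd5a1 remove active steroid and P-glycoprotein pumps can carry some steroids, cortisol and dexamethasone among them, out of cells.

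A level below is the log2 of a probe's background-corrected signal after the array's own 75th percentile, also in log2, was taken off, and levels of different probes are not comparable. A difference is knockout minus control, or BAT minus WAT, in log2 units with its standard error (SE). Adjusted p-values come from a limma fit over all 25107 genes and unnamed probes, with a threshold of 0.05. For each of them the fit took 1 spread over all groups. An SE or interval for 1 depot therefore also carries the spread of the samples of the other depot. The arrays of AdipoKO_WAT replicates 1 and 2 differed by less than the noise between spots (ratio of the SDs 0.953, next lowest of the 120 array pairs 2.31) and were counted as 1 sample, called replicate 1-2, which leaves 3 AdipoKO_WAT samples. Brown adipocyte markers fitted the tissue labels: all 7 were higher in BAT than in WAT in both genotypes, past the threshold. Cell content was uneven, however. The adipocyte list stood at -2.23, -1.34 and 0.80 in AdipoKO_WAT 1-2, 3 and 4, against -0.31 to 0.31 in CTL_WAT (median log2 deviation of its 10 genes from their means over all samples), and it lay between 0.25 and 0.56 in all BAT samples. B cell markers ran the other way in AdipoKO_WAT, at 5.17, 4.88 and -1.34, against -0.40 to 3.90 in CTL_WAT, and T and NK cell markers likewise at 4.27, 3.98 and -1.34, against -0.73 to 3.17. Skeletal muscle markers were at 2.63 to 5.29 in AdipoKO_BAT, against -1.07 to 3.02 in CTL_BAT, and endothelial markers at 0.24 to 1.31, against 0.02 to 0.16. Mesothelial markers stood at -1.16 to 2.92 in AdipoKO_WAT, against 3.72 to 5.04 in CTL_WAT, and mast cell markers at -2.19 to -0.16, against 1.03 to 2.22. Macrophage markers were at 0.29 to 0.93 in AdipoKO_WAT, against 1.01 to 1.85 in CTL_WAT, and fibroblast markers at -0.93 to 0.68, against 0.10 to 1.73. Intestinal markers were at -1.30 to 0.14 in AdipoKO_WAT, against 6.70, -1.82, 0.67 and 5.30 in CTL_WAT 1 to 4. A fit without CTL_WAT 1 and 4 together was among the alternatives. Erythroid markers were at -4.39 to 0.21 in AdipoKO_WAT, against 0.19 to 0.94 in CTL_WAT. The part of these markers in the results was not tested beyond the fits named below. In tissue RNA, fewer cells of a type and less RNA per cell cannot be told apart. Precision is limited by the small number of arrays in a group.

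In BAT, 1 of the 7 genes passed the threshold, Hsd11b1, which fell in knockouts to 21.8% of the control level. The share of all features past the threshold in this comparison was 0.0159%. Nr3c1 passed beside it, making 2 of 7, in the fits with all 16 arrays as separate samples (0.0876% of all features), with adipocyte markers as a covariate (0.749%), without AdipoKO_WAT 4 (0.339%) and without AdipoKO_BAT 4 (0.315%). In WAT 0 of 7 passed by limma, against 0.0597% of all features, while 5 of 7 had an unadjusted p under 0.05, as had 4501 of 25107 features. The groups did not overlap for 2 of 7 genes in BAT (Nr3c1 and Hsd11b1, background 18% in either direction and 8.61% lower in knockouts) and for 1 of 7 in WAT (Nr3c1, background 7.7% and 1.23%). The median difference of the 7 genes was -0.66 in WAT and -0.05 in BAT, beside medians of 0.24 and 0.10 over all features.

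**Figure D1:**
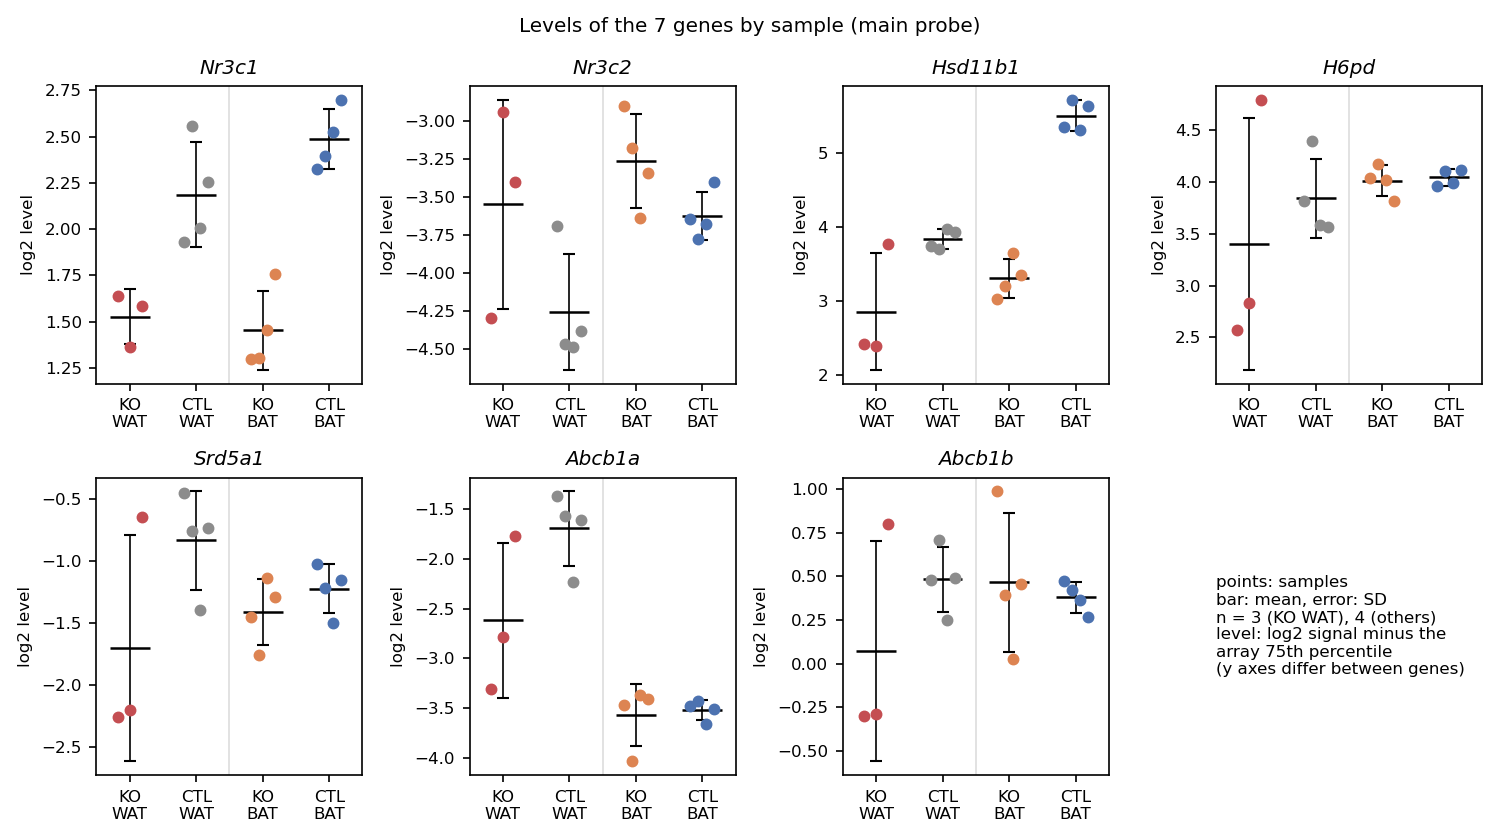
Level of each of the 7 genes (log2, relative to the 75th percentile of its array, 1 panel a gene with its own axis) in every sample of AdipoKO_WAT (n = 3), CTL_WAT, AdipoKO_BAT and CTL_BAT (n = 4 each). Points are samples, horizontal bars means and error bars SD. Hsd11b1 lies at 3.03 to 3.64 in AdipoKO_BAT, below all 4 CTL_BAT samples. Like H6pd, Srd5a1, Abcb1a and Abcb1b, it has 2 AdipoKO_WAT samples below every CTL_WAT sample and 1 among or above them.

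By its brightest probe the transcript of the targeted receptor, Nr3c1, was lower in every knockout sample than in any control of its depot, though the fit over all features passed it in neither. Nr3c1 was at 1.64, 1.36 and 1.58 in AdipoKO_WAT, against 1.93, 2.56, 2.004 and 2.26 in CTL_WAT. It was at 1.30, 1.30, 1.45 and 1.76 in AdipoKO_BAT, against 2.33, 2.40, 2.53 and 2.70 in CTL_BAT. The groups did not overlap in either depot, and both knockout groups were at about the same level (1.53 ± 0.15 in AdipoKO_WAT, SD, n = 3, and 1.45 ± 0.21 in AdipoKO_BAT, SD, n = 4). Nr3c1 was 1 of 19 features (0.0757% of 25107) that were lower in knockouts without overlap in both depots. In BAT the difference was -1.03 ± 0.18, which leaves 48.9% of the control level (limma adjusted p = 0.0814). In WAT it was -0.66 ± 0.19, or 63.4% of the control level (limma adjusted p = 0.211). The BAT difference passed in 2 of 15 fits that left out 1 sample: without AdipoKO_WAT 4 (-1.03, limma adjusted p = 0.0403) and without AdipoKO_BAT 4 (-1.14, 0.0452). Over the 15 fits the limma adjusted p reached 0.359, and without AdipoKO_BAT 1 and 2 together it was 0.797 (difference -0.88). Unlike the other genes, Nr3c1 was by this probe below every control in all 3 AdipoKO_WAT samples. The macrophage, mast cell and mesothelial marker levels were also below every control in all 3, while the adipocyte marker levels of the 3 differed widely. With adipocyte markers as a covariate the Nr3c1 difference was -0.64 in WAT (limma adjusted p = 0.299) and -1.035 in BAT (0.0291). With skeletal muscle markers as a covariate it was -0.65 in WAT (limma adjusted p = 0.226) and -0.87 in BAT (0.357). The part of cell content in the Nr3c1 difference was not tested beyond these fits.

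The gene has 4 tested probes, whose place relative to the deleted exons is not known here. The second brightest was at -1.59, -1.11, -1.59 and -1.04 in AdipoKO_BAT, against -0.46, -0.33, -0.13 and -0.08 in CTL_BAT, again with no overlap. Its difference was -1.08 ± 0.21 in BAT (limma adjusted p = 0.100 over 33051 probes) and -0.38 ± 0.23 in WAT (adjusted p = 0.353). The third had a smaller difference and was at -1.98, -2.003, -2.99 and -2.85 in AdipoKO_BAT, against -2.30, -2.06, -2.06 and -1.79 in CTL_BAT. AdipoKO_BAT 3 and 4 were below every control, 1 and 2 were not, and the groups overlapped (difference -0.40 ± 0.23 in BAT and -0.19 ± 0.25 in WAT). The dimmest probe differed by -1.89 ± 0.58 in BAT and by 0.24 ± 0.62 in WAT. It was well above background on 1 of 4 AdipoKO_BAT arrays and on all 4 CTL_BAT arrays, so the size of its BAT difference rests on values near background, and it was well above background on 3 of 4 arrays in both WAT groups. All 4 probes were lower on average in BAT knockouts, and 3 of 4 in WAT knockouts, but in WAT only the brightest kept the groups apart. The second brightest was at -1.19, -1.33 and -1.36 in AdipoKO_WAT, against -1.44, -0.51, -0.85 and -0.86 in CTL_WAT, with CTL_WAT 1 below all 3 knockouts. The mean of the 4 probes differed by -0.25 in WAT (84.3% of the control level, limma adjusted p = 0.548). Of the 13 tested probes of the 7 genes, 0 passed in WAT by limma, against 0.0424% of all probes, and 1 passed in BAT (Hsd11b1), against 0.0182%.

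**Figure D2:**
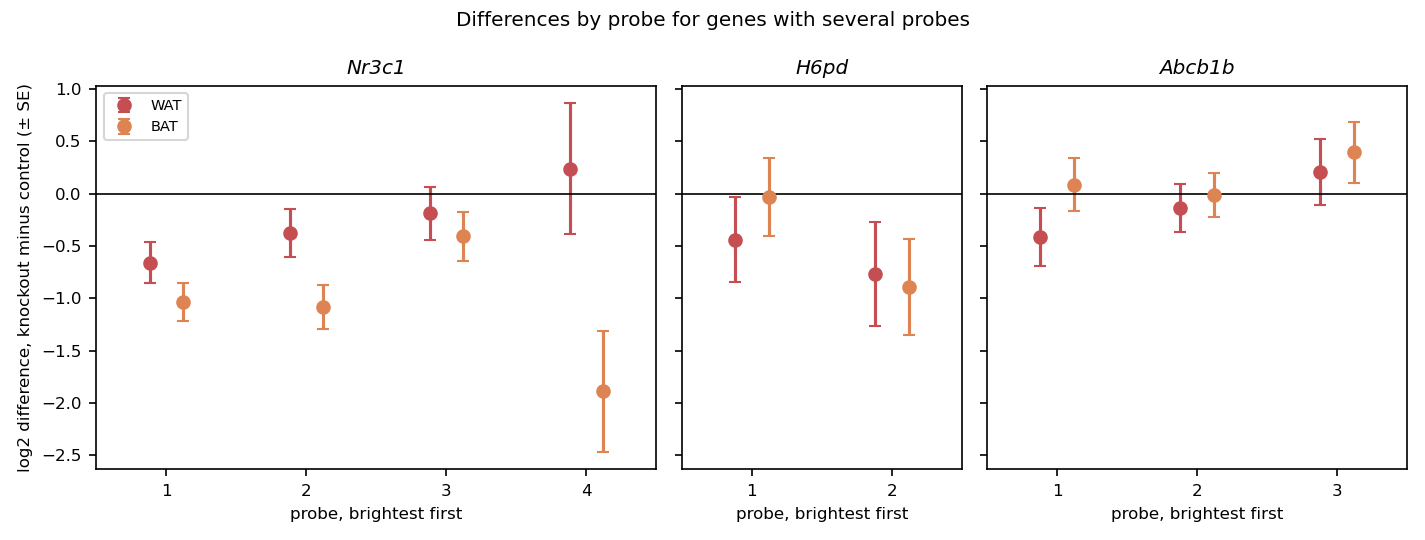
Log2 difference, knockout minus control (y axis), of each tested probe of the 3 genes with several of them, probes ordered by brightness along the x axis. Red points are WAT, orange points BAT, and error bars are SE of the limma fit. All 4 Nr3c1 probes are below 0 in BAT, while the H6pd probes are at -0.03 and -0.89 there.

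Nr3c2, the mineralocorticoid receptor gene, was measured by 1 probe that stayed dim throughout, though well above background on every array. It was at -4.29, -2.94 and -3.40 in AdipoKO_WAT, against -3.69, -4.47, -4.48 and -4.38 in CTL_WAT. In BAT it was at -2.90, -3.18, -3.63 and -3.34 in AdipoKO_BAT, against -3.64, -3.77, -3.68 and -3.40 in CTL_BAT. Knockouts and controls overlapped in both depots. The differences were 0.71 ± 0.30 in WAT (limma adjusted p = 0.264) and 0.36 ± 0.28 in BAT (adjusted p = 0.639), neither past the threshold. Before scaling, the signal of the probe was 39.9, 35.4, 40.0 and 48.1 units in AdipoKO_BAT, against 45.1, 40.1, 41.3 and 47.4 units in CTL_BAT. The highest BAT levels were those of AdipoKO_BAT 1 and 2, the arrays with the lowest 75th percentiles (298 and 320, against 501 to 562 in CTL_BAT), and without these 2 arrays the BAT difference was 0.14. Of the other 2 Nr3c2 probes, 1 was well above background on at most 2 of 4 arrays of a group and the other on none, and neither was tested.

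Hsd11b1, the reactivating enzyme, had the largest knockout difference among the 7 genes. It was at 3.03, 3.20, 3.64 and 3.35 in AdipoKO_BAT, against 5.35, 5.72, 5.30 and 5.63 in CTL_BAT. All 4 knockouts were below all 4 controls, and the means were 3.30 ± 0.26 in AdipoKO_BAT and 5.50 ± 0.20 in CTL_BAT (SD, n = 4 each). The difference of -2.20 ± 0.27 (95% interval -2.78 to -1.62), a 4.59-fold fall, had the smallest p of all 25107 features (limma adjusted p = 0.0342). Within the 4 slides, each of which held 1 array of every group, it was -2.69, -2.10, -1.71 and -2.28. When slide entered the fit as a block, the limma adjusted p was 0.0843. With skeletal muscle markers as a covariate the difference was -2.34 (limma adjusted p = 0.220), and with adipocyte markers as a covariate it was -2.22 (limma adjusted p = 0.000789). Without AdipoKO_BAT 1 and 2, the 2 knockout samples highest in endothelial markers, it was -2.01 (limma adjusted p = 0.610). The call was lost when any of 9 samples was left out singly (CTL_WAT 2 or 4, any CTL_BAT sample, or AdipoKO_BAT 1, 2 or 3), with limma adjusted p between 0.0508 and 0.196 and differences between -2.31 and -2.10. Leaving out CTL_WAT 2 or 4 kept the difference at -2.20 and changed only its SE and adjusted p. With the BAT samples alone it was -2.20 ± 0.17 (limma adjusted p = 0.00904), and without AdipoKO_WAT 4 the limma adjusted p was 0.000136.

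In WAT, Hsd11b1 was at 2.41, 2.39 and 3.76 in AdipoKO_WAT, against 3.74, 3.70, 3.97 and 3.93 in CTL_WAT. AdipoKO_WAT 1-2 and 3 were below every control and AdipoKO_WAT 4 was among them. The difference was -0.98 ± 0.29, or 50.7% of the control level (limma adjusted p = 0.212), and within the slides it was -1.36, -1.27, -0.20 and -1.53, 4 values that rest on 3 knockout samples, since the second and the fourth use the arrays counted as replicate 1-2. Whether the knockout difference depended on the depot was tested by the interaction, BAT difference minus WAT difference. For Hsd11b1 it was -1.22 ± 0.40 (95% interval -2.07 to -0.36, limma adjusted p = 0.378), so a depot dependence was not shown. Without AdipoKO_WAT 4 it was -0.76 ± 0.25 (limma adjusted p = 0.0536). None of the 7 genes passed the interaction test, by which 0.00398% of all features passed and 1 of the 7, Hsd11b1, had an unadjusted p under 0.05, as had 10.4% of all features.

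The promoter of Hsd11b1 is shown because this gene alone passed in BAT. The window runs from 250 bases before to 50 bases after the annotated start (RefSeq, GRCm38.p6, chr1:193242311-193242610, minus strand). RefSeq's table gives 1 start a gene, and the start used in these tissues was not measured. Capitals mark letters of the searched motifs, on either strand: TGTTCT, an arm of the palindrome bound by corticosteroid receptors, which is AGAACA and TGTTCT set 3 bases apart, TTNNGNAA, the core bound by C/EBP factors, the GC box GGGCGG and the CCAAT box CCAAT.
Hsd11b1: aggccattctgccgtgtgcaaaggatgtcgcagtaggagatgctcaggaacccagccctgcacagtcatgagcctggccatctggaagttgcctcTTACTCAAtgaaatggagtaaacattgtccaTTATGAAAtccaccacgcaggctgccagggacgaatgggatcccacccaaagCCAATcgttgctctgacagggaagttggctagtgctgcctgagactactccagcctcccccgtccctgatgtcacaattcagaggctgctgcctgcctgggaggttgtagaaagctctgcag
The window holds TTNNGNAA at 2 places, which begin 155 and 124 bases before the start, and CCAAT at 1, which begins 72 bases before it. Neither the palindrome nor TGTTCT is in it. Of 32851 promoter windows of this length in the RefSeq table, 40.7% hold TTNNGNAA, 37.4% CCAAT, 35.7% GGGCGG, 19% TGTTCT and 0.00913% the palindrome. Such matches describe letters only. C/EBP factors are known to act on this promoter in liver and fat cells. Differences of Cebpb and Cebpd are given with the other genes of the pathway, and those of Cebpa are not given.

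H6pd, the endoplasmic reticulum enzyme that supplies NADPH to the Hsd11b1 product, had 2 tested probes that differed in BAT. The brighter was at 4.04, 4.17, 4.02 and 3.82 in AdipoKO_BAT, against 3.96, 4.11, 3.99 and 4.11 in CTL_BAT. These groups overlapped, and the difference was -0.03 ± 0.38 (95% interval -0.84 to 0.78, limma adjusted p = 0.989). This SE carries the spread of the WAT samples: the SD was 1.21 in AdipoKO_WAT, against 0.15 in AdipoKO_BAT and 0.08 in CTL_BAT. With the BAT samples alone the SE was 0.12 (limma adjusted p = 0.909). The dimmer probe was at 0.15, 0.48, 1.12 and 0.83 in AdipoKO_BAT, against 1.46, 1.69, 1.58 and 1.42 in CTL_BAT. All 4 knockouts lay below all 4 controls by that probe, with a difference of -0.89 ± 0.46 (limma adjusted p = 0.394 over 33051 probes). It was 1 of 5 of the 13 tested probes of these genes without overlap in BAT (3 of Nr3c1, 1 of Hsd11b1 and this one), where 19% of all probes had none. In WAT both probes behaved alike. The brighter was at 2.58, 2.83 and 4.79 in AdipoKO_WAT, against 3.81, 4.39, 3.59 and 3.57 in CTL_WAT, and the dimmer at -1.08, -0.45 and 1.72, against 0.78, 1.42, 0.53 and 0.58. AdipoKO_WAT 1-2 and 3 were the lowest and AdipoKO_WAT 4 the highest WAT sample by either probe. The WAT differences were -0.44 ± 0.41 (limma adjusted p = 0.507) and -0.76 ± 0.49 (adjusted p = 0.380).

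Srd5a1, which reduces the A ring of testosterone, progesterone and corticosterone, differed little in BAT and split the WAT knockouts. It was at -1.45, -1.76, -1.14 and -1.28 in AdipoKO_BAT, against -1.02, -1.21, -1.50 and -1.15 in CTL_BAT. It was at -2.26, -2.20 and -0.64 in AdipoKO_WAT, against -0.45, -0.76, -1.39 and -0.73 in CTL_WAT. The BAT groups overlapped, and in WAT replicates 1-2 and 3 lay below all controls while replicate 4 lay among them. The differences were -0.19 ± 0.32 in BAT (95% interval -0.88 to 0.51, limma adjusted p = 0.881) and -0.87 ± 0.35 in WAT (adjusted p = 0.259).

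Abcb1a and Abcb1b are neighbouring mouse genes for P-glycoprotein, a membrane pump that in humans a single gene encodes. Abcb1a was at -3.31, -2.79 and -1.77 in AdipoKO_WAT, against -1.36, -1.57, -2.23 and -1.61 in CTL_WAT. It was at -3.47, -4.04, -3.37 and -3.41 in AdipoKO_BAT, against -3.48, -3.43, -3.66 and -3.51 in CTL_BAT. The WAT knockouts again split, with replicate 4 among the controls, and the BAT groups overlapped. The differences were -0.93 ± 0.32 in WAT (limma adjusted p = 0.234) and -0.05 ± 0.29 in BAT (95% interval -0.68 to 0.58, adjusted p = 0.970). Abcb1b was at -0.30, -0.29 and 0.80 in AdipoKO_WAT, against 0.48, 0.71, 0.25 and 0.49 in CTL_WAT. It was at 0.99, 0.39, 0.03 and 0.46 in AdipoKO_BAT, against 0.47, 0.42, 0.37 and 0.26 in CTL_BAT. Its BAT controls were tightly grouped and its BAT knockouts spread around them. The differences were -0.41 ± 0.28 in WAT (limma adjusted p = 0.385) and 0.08 ± 0.26 in BAT (95% interval -0.46 to 0.63, adjusted p = 0.939). Over its 3 probes, brightest first, the WAT differences were -0.41, -0.14 and 0.21 and the BAT differences 0.08, -0.01 and 0.40, so their signs differ, and transcripts this alike in sequence can share probe signal.

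**Figure D3:**
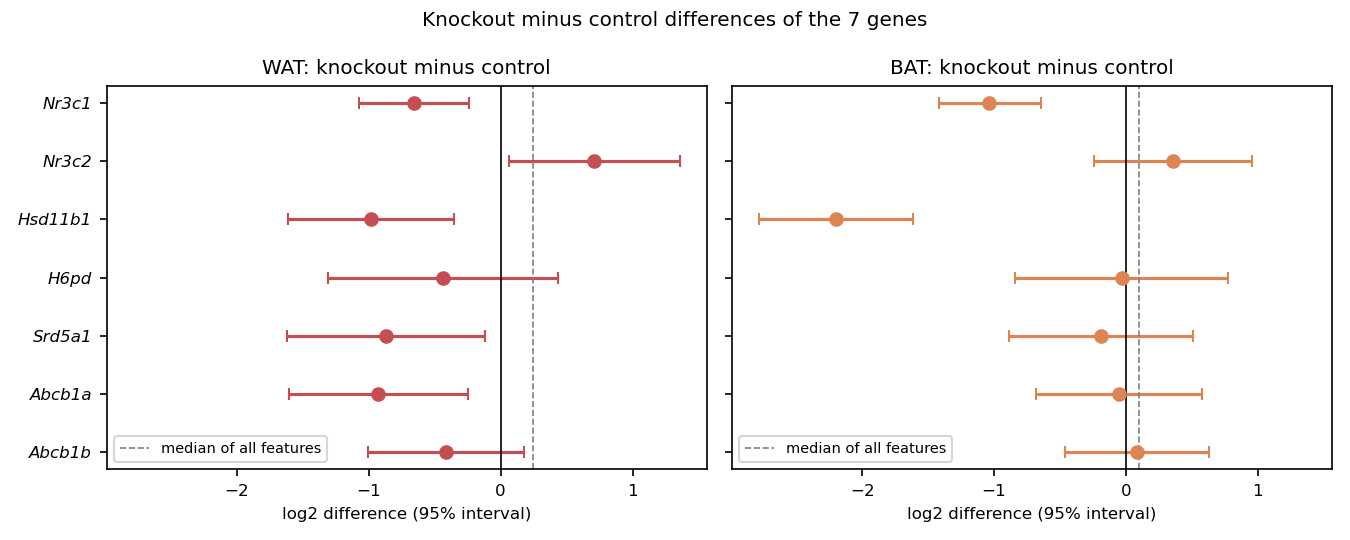
Log2 difference, knockout minus control, of the 7 genes in WAT (left) and BAT (right), on the x axis. Points are limma estimates, error bars their 95% intervals and the dashed line the median of all 25107 features (0.24 in WAT, 0.10 in BAT). Hsd11b1 at -2.20 and Nr3c1 at -1.03 stand left of 0 in BAT, where the other 5 intervals include 0.

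The WAT samples share a pattern across these genes. By the brightest probes, AdipoKO_WAT 1-2 and 3 were below every control for 6 of the 7 genes (all but Nr3c2), as they were for 22% of all features. The other 2 Abcb1b probes did not show this: AdipoKO_WAT 3 was at -1.59 and -2.17 by them, against controls that reached down to -1.94 and -3.19. Nor did the other 3 Nr3c1 probes, by which AdipoKO_WAT 3 was at -1.33, -2.48 and -3.70. The lowest controls by these probes were at -1.44, -2.63 and -6.45. For 5 of the 6 genes (Hsd11b1, H6pd, Srd5a1, Abcb1a and Abcb1b) AdipoKO_WAT 4 was not, and for H6pd and Abcb1b it was above every control. Its array had the lowest 75th percentile in WAT (486, the others 700 to 1035), so scaling raised its levels most. Before scaling it was below every CTL_WAT array for Hsd11b1 (6605 units, lowest control 9719) and Abcb1b (847, 987). Srd5a1 (311, 316) and Abcb1a (143, 176) were likewise below them, and H6pd was among them. For all 5 genes it still exceeded the other AdipoKO_WAT arrays. Of the 7, only Nr3c1 was below every control in all 3 knockout samples, and by its brightest probe alone. AdipoKO_WAT 1-2 and 3 are the WAT samples lowest in adipocyte markers and highest in lymphocyte markers, and AdipoKO_WAT 4 is the reverse. CTL_WAT 3 and 4 were also high in B cell markers (3.90 and 3.33). AdipoKO_WAT 1-2 and 3 were also the WAT samples lowest in fibroblast, endothelial, mast cell, mesothelial and erythroid markers. Without AdipoKO_WAT 4, 6 of 7 genes passed in WAT, but so did 9236 of 25107 features, 36.8%. The differences then were -0.69 for Nr3c1 (limma adjusted p = 0.0223), -1.44 for Hsd11b1 (0.000344), -1.14 for H6pd (0.00242), -1.40 for Srd5a1 (0.00169), -1.35 for Abcb1a (0.0024) and -0.78 for Abcb1b (0.017). With the adipocyte marker level of each sample as a covariate, 0 of 7 passed by limma, against 0.143% of all features, and the differences were -0.64 for Nr3c1, -0.61 for Hsd11b1, 0.26 for H6pd, -0.38 for Srd5a1, -0.48 for Abcb1a, -0.04 for Abcb1b and 0.92 for Nr3c2.

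**Figure D4:**
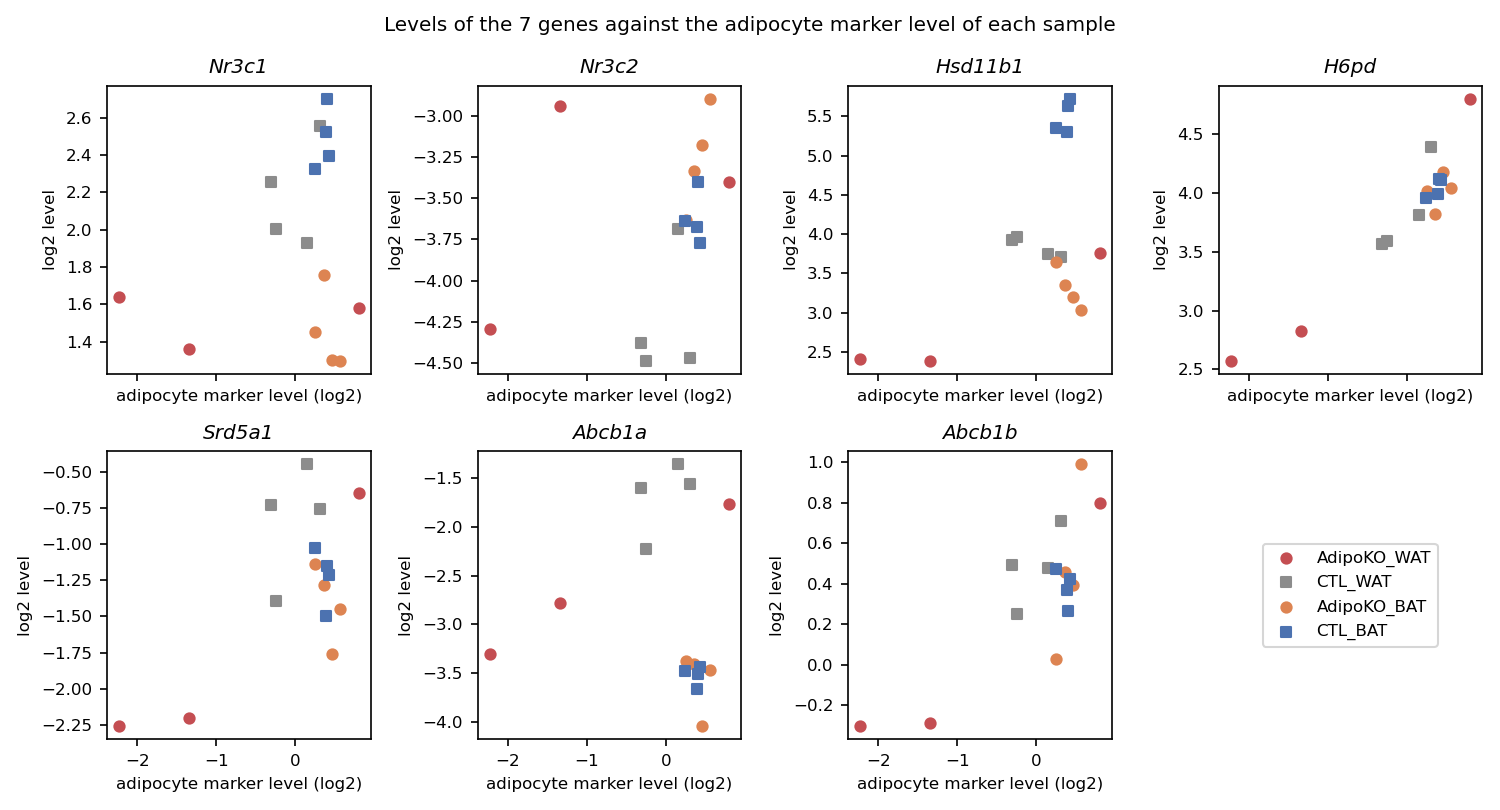
Level of each of the 7 genes (y axis, log2, relative to the 75th percentile of its array) against the adipocyte marker level of the same sample (x axis, median log2 deviation of 10 marker genes). Circles are knockout and squares control samples. AdipoKO_WAT 1-2 and 3, at -2.23 and -1.34 on the x axis, are below every CTL_WAT sample for all genes but Nr3c2. For Abcb1a they lie above all BAT samples. The CTL_BAT squares of Hsd11b1 stand above all other samples.

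Between the depots, BAT controls held more Hsd11b1 and less Abcb1a than WAT controls. Of the 7 genes, 2 passed in controls, where 33.4% of all features did, and 2 of 7 had no overlap, where 43.3% of all features had none. Hsd11b1 was 1.67 ± 0.27 higher in CTL_BAT than in CTL_WAT (3.18-fold, limma adjusted p = 0.000344), with all 4 BAT samples above all 4 WAT samples. Abcb1a fell by 1.83 ± 0.29 on the log2 scale (limma adjusted p = 0.00032), again with no overlap, and its neighbour Abcb1b differed by -0.10 ± 0.26 (95% interval -0.65 to 0.45). With skeletal muscle markers as a covariate the Hsd11b1 difference was 1.36 (limma adjusted p = 0.148). In the knockouts 1 of 7 passed, against 30.6% of all features, and 1 of 7 had no overlap, against 25.5%. That gene was Abcb1a, -0.95 ± 0.32 in AdipoKO_BAT minus AdipoKO_WAT (limma adjusted p = 0.0354). It did not pass without AdipoKO_WAT 3 (-1.03, limma adjusted p = 0.0714), AdipoKO_WAT 4 (-0.53, 0.122), AdipoKO_BAT 2 (-0.80, 0.0958) or AdipoKO_BAT 4 (-1.01, 0.0506). Hsd11b1 differed by 0.45 ± 0.29 in the knockouts (limma adjusted p = 0.282), and the change of its depot gap is the same interaction given above, which did not pass. Over the groups the order of Hsd11b1 was CTL_BAT, CTL_WAT, AdipoKO_BAT and AdipoKO_WAT, and the last 2 overlapped. Nr3c1 followed the order CTL_BAT, CTL_WAT, AdipoKO_WAT and AdipoKO_BAT, with overlap within each genotype. In controls its brightest probe differed by 0.30 ± 0.18 between the depots (limma adjusted p = 0.229), while the second brightest was 0.66 ± 0.21 higher in CTL_BAT (adjusted p = 0.0247 over 33051 probes, of which 34.3% passed). Nr3c2, H6pd and Srd5a1 differed between depots by 0.63, 0.20 and -0.39 in controls and by 0.28, 0.61 and 0.29 in knockouts, none past the threshold. For Nr3c2 in controls the limma adjusted p was 0.0978. It passed with array-median scaling (0.78, limma adjusted p = 0.00920), quantile normalization (0.68, 0.00447) and the compared samples alone (0.63, 0.0346), and without CTL_WAT 1 (0.82, 0.0378) or AdipoKO_WAT 1-2 (0.63, 0.0412). In knockouts it passed with quantile normalization (0.48, limma adjusted p = 0.0413), under which Abcb1a did not (-0.84, 0.0967). Without AdipoKO_WAT 4, 4 of 7 passed between the knockout depots (H6pd, Hsd11b1, Abcb1b and Srd5a1, not Abcb1a), against 45.6% of all features, and 3 passed the interaction (H6pd 1.11, Abcb1a 1.30 and Srd5a1 1.21), against 16.2%.

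The promoters of Srd5a1, Abcb1a and Abcb1b are shown because the levels of Srd5a1 and Abcb1a were most alike among the 7 genes, and Abcb1a and Abcb1b are close relatives with unlike depot patterns. Capitals mark the same motifs as above (RefSeq, GRCm38.p6: Srd5a1 chr13:69611414-69611713, minus strand; Abcb1a chr5:8566841-8567140, plus strand; Abcb1b chr5:8797897-8798196, plus strand).
Srd5a1: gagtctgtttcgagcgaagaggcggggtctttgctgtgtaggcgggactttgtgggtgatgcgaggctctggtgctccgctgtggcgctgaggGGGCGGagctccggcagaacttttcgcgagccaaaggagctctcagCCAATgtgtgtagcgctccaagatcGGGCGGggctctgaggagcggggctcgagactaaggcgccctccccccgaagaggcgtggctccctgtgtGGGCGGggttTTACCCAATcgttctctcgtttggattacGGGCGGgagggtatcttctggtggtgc
Abcb1a: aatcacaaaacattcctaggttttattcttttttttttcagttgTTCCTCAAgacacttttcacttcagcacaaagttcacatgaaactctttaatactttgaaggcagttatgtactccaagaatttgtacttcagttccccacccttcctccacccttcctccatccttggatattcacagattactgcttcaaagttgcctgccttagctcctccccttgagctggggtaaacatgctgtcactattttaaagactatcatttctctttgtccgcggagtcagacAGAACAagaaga
Abcb1b: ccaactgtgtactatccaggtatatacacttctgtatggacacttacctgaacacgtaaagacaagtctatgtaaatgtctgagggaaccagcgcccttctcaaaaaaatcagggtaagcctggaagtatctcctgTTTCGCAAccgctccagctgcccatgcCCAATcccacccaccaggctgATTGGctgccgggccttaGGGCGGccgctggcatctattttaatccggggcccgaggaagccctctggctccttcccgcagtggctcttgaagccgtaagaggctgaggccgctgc
The Srd5a1 window holds 4 GC boxes and 2 CCAAT boxes, 1 of which overlaps its TTNNGNAA match. The Abcb1a window holds no GC box and no CCAAT box, and 1 TGTTCT match on the opposite strand (AGAACA), which begins 39 bases past the start. The Abcb1b window holds 1 GC box and 2 CCAAT boxes and no TGTTCT match. Each of the 3 holds 1 TTNNGNAA match and none holds the palindrome.

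The genes whose levels were most like those of each of the 7 were found by Pearson correlation over the 15 samples after centring on the mean of each depot. These r values chose the genes, the WAT values rest largely on the 2 AdipoKO_WAT samples that stand apart, and no test is attached to them. Levels were not centred on genotype, so likeness to a gene that differs between genotypes favours genes that differ alike. The BAT differences of the genes most like Hsd11b1 thus follow in part from how they were chosen. Srd5a1 and Abcb1a were each other's most similar gene (r = 0.96, with 0.97 over the 7 WAT and 0.83 over the 8 BAT samples). Hsd11b1 was most like Eif1a and Gm5662 (r = 0.96 each) and Msmo1 (r = 0.95), whose product oxidises methyl groups of cholesterol precursors, and these differed by -1.24, -1.45 and -1.16 in BAT. Nr3c1 was most like Fndc3a, Ubqln1 and 1600012H06Rik (r = 0.92 each). The genes most like H6pd were Galnt2, Sumf2 and Slc25a39 (r = 0.99, 0.99 and 0.98), with BAT differences of -0.03, -0.08 and 0.01. For Nr3c2 they were Chrng, Gbx1 and Sdr9c7 (r = 0.96, 0.95 and 0.94), for Srd5a1 also Mocos and Grtp1 (0.95 each), for Abcb1a also Aqp11 (0.96) and Ugt1a6b (0.95), and for Abcb1b Vegfc, Dtx2 and Tm4sf1 (0.94 each).

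The other genes of the pathway, in 8 lists, gave 0 genes past the threshold in either knockout comparison or the interaction by limma, and their differences are values only. Glucocorticoid inactivation could be followed only in part. Hsd11b2, which turns corticosterone into its inert form, was well above background on at most 2 of 4 arrays of any group, Srd5a2 and Akr1d1 on 0, and these were not tested, nor were Akr1c6 and Cyp3a13. Of the 4 genes of this list that were tested, Akr1c14 differed by -0.81 ± 0.44 in WAT and -0.29 ± 0.41 in BAT, and Cyp3a11 by -0.71 ± 0.61 and -0.16 ± 0.56. The list median was -0.43 in WAT and -0.14 in BAT. Srd5a3, which acts on polyprenols in glycosylation, was lower in BAT in both genotypes (-1.18 in knockouts and -1.09 in controls, limma adjusted p = 0.000171 and 0.000111). Of 10 tested steroid synthesis genes, the largest differences by p were 0.56 ± 0.17 for Fdxr and -0.87 ± 0.41 for Hsd3b7 in WAT and 0.34 ± 0.15 for Stard3 and 0.55 ± 0.25 for Cyp17a1 in BAT (median 0.41 in WAT and -0.04 in BAT). Fdx1 and Fdxr, the mitochondrial electron carriers, were higher in BAT in both genotypes, by 2.40 and 0.66 in knockouts and 1.92 and 1.13 in controls. Among 4 tested genes of steroid binding and efflux (median -0.04 in WAT and 0.13 in BAT), Abcg2 differed by -0.77 ± 0.27 in WAT and Abcb4, a phospholipid pump related to the P-glycoproteins, by 0.60 ± 0.20 in BAT. The values of Abcc1 in WAT and Abcc4 in BAT were -0.06 ± 0.24 and 0.20 ± 0.16. Between depots Abcc4 was higher in BAT by 1.34 in knockouts and 1.18 in controls, and Abcb4 by 1.01 in knockouts. Serpina6, the plasma carrier of corticosterone, was not bright enough to test.

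The supply of glucose 6-phosphate and NADPH gave values mostly below 0. Of its 12 genes 9 were lower in WAT knockouts and 8 in BAT knockouts, where 33.5% and 39.8% of all features were. The medians were -0.37 and -0.17, and none passed. In BAT 4 of the 12 were lower without overlap (G6pdx -0.77, Pgd -0.65, Me1 -0.82 and Idh1 -0.83), where 8.61% of all features were. Pgls, of the same pathway as the first pair, differed by 0.44 ± 0.20 in BAT. In WAT Idh1 differed by -1.15 ± 0.41 and Me1 by -1.62 ± 0.61. Me1 and Idh1 make NADPH in the cytosol, as G6pdx and Pgd do in the pentose phosphate pathway, and H6pd itself is in the endoplasmic reticulum. Between depots 6 of 12 passed in controls and 8 in knockouts, where 33.4% and 30.6% of all features did, led by Pgls (1.60 in knockouts and 1.39 in controls) and Taldo1 (1.71 and 1.35), and the transporter gene Slc37a2 was lower in BAT (-1.53 and -1.34).

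Of the 7 factors known to act on Hsd11b1, Cebpd had opposite signs in the depots without overlap, at -0.56 ± 0.22 in WAT (limma adjusted p = 0.257) and 0.51 ± 0.21 in BAT (adjusted p = 0.324), where 7.7% and 18% of all features had no overlap. Pparg, the adipocyte nuclear receptor, differed by -1.05 ± 0.53 in WAT, and Cebpb by -0.13 ± 0.25 in BAT (list median -0.52 in WAT and -0.04 in BAT). Cebpb was higher in BAT than in WAT by 3.34 in knockouts and 2.94 in controls, Pparg was higher by 2.77 and 1.97, and Cebpd differed by -0.88 and -1.94. Among 8 receptor chaperones and immunophilins (median 0.20 in WAT and -0.06 in BAT), Hsp90aa1 was lower without overlap in AdipoKO_BAT (-0.93 ± 0.18, limma adjusted p = 0.103), as was Ppid (-0.48 ± 0.20), 2 of the 8, where 8.61% of all features were. Ppid differed by 0.45 ± 0.21 in WAT and Hsp90ab1 by 0.26 ± 0.17. Fkbp4 was higher in BAT by 0.73 in knockouts and 0.70 in controls, Ppid differed between the depots by -0.77 in knockouts and Hsp90ab1 by 0.45 in controls. Of 13 tested genes known to be induced by liganded receptors (median -0.52 in WAT and 0.41 in BAT), the metallothionein gene Mt2 differed by -1.70 ± 0.44 in WAT and -1.74 ± 0.40 in BAT, Mt1 by -1.40 ± 0.45 in WAT, and Ddit4, an inhibitor of mTOR signalling, by 1.57 ± 0.38 in BAT (limma adjusted p = 0.177, 0.175, 0.227 and 0.181). Pdk4 and Ptgds were higher in BAT, by 6.10 and 3.81 in knockouts and 5.42 and 1.92 in controls. Of 9 tested genes named for hydroxysteroid dehydrogenase activity at carbon 17 (median -0.38 in WAT and -0.06 in BAT), Hsd17b12 and Hsd17b4, which act on fatty acids, differed by -1.07 ± 0.50 and -0.86 ± 0.40 in WAT. H2-Ke6, the older name of Hsd17b8, and Hsd17b7 differed by -0.51 ± 0.19 and -0.44 ± 0.20 in BAT, and H2-Ke6 and Hsd17b12 were higher in BAT in controls (1.83 and 1.71), as were Hsd17b10 and H2-Ke6 in knockouts (1.30 and 1.24).

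**Figure D5:**
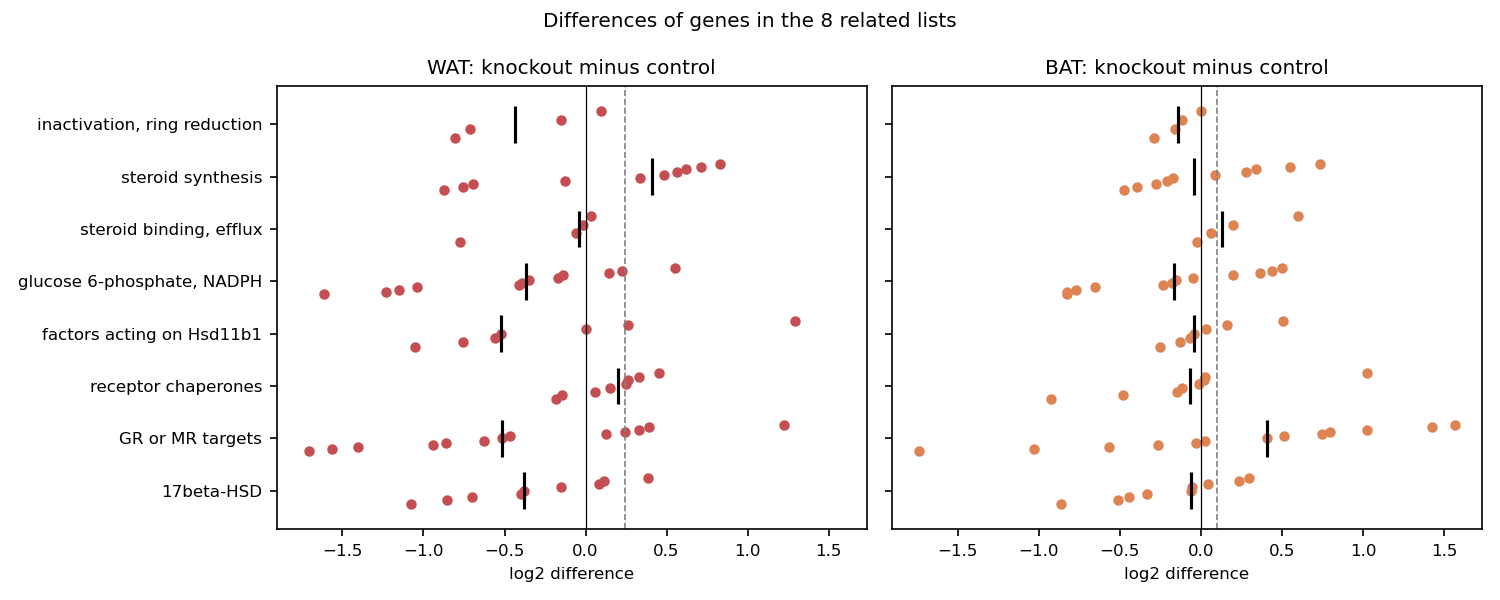
Log2 difference, knockout minus control (x axis), of each tested gene of the 8 lists (rows) in WAT (left) and BAT (right). Points are genes, short black bars the list medians, the dashed line the median of all features. List medians run between -0.52 and 0.41 in both depots, and no gene shown passed the threshold.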

How the data were processed

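RNA was hybridised to 1-colour (Cy3) Agilent arrays. Per the file headers, the authors' scanner files were made with Agilent Feature Extraction 12.0.0.7, and the deposited intensity values used here are spot signals, background-subtracted within the array and not scaled between arrays. Other deposited columns used are flags per spot, such as that for signal well above background, and 0 columns of other samples were used.

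Levels were log2 intensities minus each array's 75th percentile, over 41174 probes (28223 with a gene symbol, 12951 without, by RefSeq accession). Percentiles ran between 298 and 1035 intensity units, and 66.7% to 83.6% of probes were well above background. Features well above background on at least 3 of 4 arrays of a group were tested, with the brightest probe standing for a gene: 16677 genes and 8430 unnamed probes. Limma 3.58.1 (R 4.3.3, lmFit and eBayes) was fitted with 1 mean for each group, 15 samples, 11 residual degrees of freedom and Benjamini-Hochberg adjustment, and its steps were tested on simulated data. Figures and motif searches used Python 3.11.15, pandas 2.3.3 and matplotlib 3.10.9. All 4 groups had an array on each slide, but a group kept 1 array position throughout, so position and group cannot be told apart.

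The 7 genes and all lists were chosen with earlier results of these data known. Besides the 7, the text names up to 3 genes of a list past the threshold in each knockout or interaction comparison and up to 2 in each depot comparison, up to 2 of smallest adjusted p where none passed, and the 3 named genes most alike to each of the 7. Slc37a2, G6pdx, Pgd, Me1 and Idh1 in BAT, Ppid in BAT and, for 1 genotype, the depot values of Srd5a3, Fdxr, Cebpd and Pparg were added after their values were seen. Alternatives covered background correction (normexp, offset 50), scaling, the filter, the probe rule, slide and replicate blocks, marker covariates and left-out samples. Replicate numbers were not taken to pair samples, since not every pair in any comparison correlated above 0.1: knockout and control deviations correlated at -0.66 to 0.79 in WAT and 0.0012 to 0.12 in BAT over 7310 genes, those of CTL_BAT and CTL_WAT at 0.027 to 0.21 (3 of 4 best with their own number), and those of AdipoKO_BAT and AdipoKO_WAT at -0.13 to 0.18 (2 of 3).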

Additional observations from a re-analysis of the deposited data

Results flagged for a closer look

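Of 39 groups of 4 samples examined probe by probe, 4 had a sample far from the other 3 by Dixon's criterion, which chance gives in about 1 of 20 groups. For the dimmest Nr3c1 probe CTL_BAT 1 was at -3.40, with the other CTL_BAT samples at -3.05 to -3.02. For Nr3c2 CTL_WAT 1 was at -3.69, with the others at -4.48 to -4.38. For Abcb1a AdipoKO_BAT 2 was at -4.04, with the others at -3.47 to -3.37. For the dimmest Abcb1b probe CTL_WAT 1 was at -2.04, with the others at -3.19 to -3.10.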

How the results depend on the processing

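Hsd11b1 stayed lower in BAT knockouts in all 17 other settings (-2.34 to -2.01) and passed in 10 of them, and in 6 of 15 fits that left out 1 sample. Nr3c1 in BAT passed in 2 of 17 and 2 of 15 (-1.18 to -0.87 over the settings). The count of the 7 genes past the threshold in BAT was 0 with normexp, with no filter, with slide as a block, with replicate number as a block (Hsd11b1 -2.20, limma adjusted p = 0.0886), with the muscle covariate and without CTL_WAT 1 and 4 or AdipoKO_BAT 1 and 2, and 2 with 16 separate arrays or the adipocyte covariate. Between knockout depots it was 0 with normexp, array-median scaling, slide or replicate block, 16 arrays, the muscle covariate, the compared samples alone and without AdipoKO_BAT 1 and 2. With quantile normalization it stayed 1, but Nr3c2 passed (0.48) and Abcb1a did not (-0.84). Between control depots it was 1 with the muscle covariate and 3 with array-median scaling, quantile normalization and the compared samples alone (Nr3c2 added), with the mean of probes (Nr3c1 added, 0.71) and with the adipocyte covariate (Srd5a1 added, -0.60). Leaving out 1 sample gave 0 to 2 genes in BAT, 0 to 6 in WAT, 0 to 3 in the interaction, 2 to 3 between control depots and 0 to 4 between knockout depots. Over all features the WAT count of 15 was 9236 without AdipoKO_WAT 4, the BAT count of 4 ran between 0 and 188, and the interaction count of 1 reached 4062. With array-median scaling the median of all features was 0.11 in WAT and -0.04 in BAT. Signs turned only for differences that had not passed. With normexp these were Abcb1a (0.43) and Srd5a1 (0.079) in BAT, and Nr3c2 in the interaction (0.24) and between control depots (-0.076). Without AdipoKO_BAT 1 and 2 they were Abcb1a (0.13), Abcb1b (-0.14) and Srd5a1 (0.011) in BAT, and Nr3c1 between knockout depots (0.077). Array-median scaling turned Abcb1b in BAT (-0.059) and between control depots (0.050) and Nr3c1 between knockout depots (0.071). Quantile normalization turned H6pd (-0.26) and Nr3c1 (-0.011) between control depots. The adipocyte covariate turned H6pd in WAT (0.26), in the interaction (-0.33), between control depots (-0.10) and between knockout depots (-0.43), and there also Abcb1b (-0.16), Hsd11b1 (-0.10), Nr3c2 (-0.027) and Srd5a1 (-0.44). The muscle covariate turned H6pd between control (-0.36) and knockout depots (-0.20), and Nr3c1 (0.45) and Srd5a1 (-0.17) between knockout depots. Leaving out 1 sample gave ranges across 0 for Abcb1a (-0.12 to 0.10), Abcb1b (-0.090 to 0.23) and H6pd (-0.083 to 0.035) in BAT, H6pd in the interaction (-0.0019 to 1.11) and Nr3c2 between knockout depots (-0.091 to 0.59). The cause of these changes was not tested. Signal over background limits the dimmest Nr3c1 probe, the only tested probe of the 7 genes not well above background on every array.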
